A study of Danio rerio with 18 samples.

Results

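The genes described are 7 that code for enzymes of purine nucleotide synthesis (*ppat*, *gart*, *paics*, *adsl*, *atic*, *impdh1b* and *impdh2*), out of 21227 gene symbols in a table of fed against unfed zebrafish larvae. Each gene was found by its symbol and is represented by its most abundant transcript. All 7 were found, and all lay among the 12828 genes averaging at least 0 on the log2 CPM scale (CPM is counts scaled to library size), called measured genes here. The set was chosen by name with the fold changes and adjusted p-values of all 4 comparisons already known. Its values are therefore a description, and the adjusted p-values beside them are the authors' own edgeR results.

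The larvae were wild type (AB) and 6.5 days post fertilization. They ate either 5% egg yolk emulsion, the high-fat food, or 10% egg white, the low-fat food. RNA came from dissected intestine, liver and pancreas, with the organs of 10 larvae pooled in each sample. There were 6 groups of 3 samples: an unfed, a 1 h and a 4 h group in the yolk cohort, and the same in the egg white cohort. The 1 h and 4 h comparisons of a cohort share its unfed larvae. In such pools, fewer cells of a type and less RNA per cell cannot be told apart. The study asked how gene activity in the gut responds to a meal of either food over time. Single samples have no values in the analysis, so the spread within a group and the depth are unknown.

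Every change below is a log2 fold change of fed over unfed larvae, called where the authors' adjusted p is under 0.05. The standard errors (SE) are implied by the p-values of genes of like abundance. For the 7 enzymes they were 0.36 to 0.37, and they do not carry the spread of a single gene. Among the measured genes named below, the authors' p-values closely followed the size of the fold change at like abundance. A small adjusted p therefore says little about how well the replicates of that gene agreed.

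Purine rings are assembled step by step on a ribose phosphate until inosine monophosphate (IMP) is complete, and IMP is then turned into AMP or GMP. In mammals the liver is a main site of this synthesis, and many tissues also recover purine bases by salvage. PPAT catalyses the first committed step, GART, PFAS and PAICS build up the ring, ADSL releases fumarate, and ATIC closes the ring. ADSL also acts on the AMP branch, and IMP dehydrogenase opens the GMP branch. Zebrafish mutants of *paics* or *gart* are known for pigment defects and small eyes.

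*paics* fell 4 h after egg white, to 0.297 times its unfed level, and *impdh2* rose 1 h after egg white, to 2.93 times its unfed level, both computed from the authors' deposited table. No other of the 28 values (7 enzymes, 4 comparisons) was called. The remaining 5 enzymes gave 20 values between -0.55 and 0.40, and their smallest adjusted p was 0.69 in the authors' deposited table. Called enzymes numbered 0 of 7 at 1 h and 0 of 7 at 4 h after yolk, where 3.73% and 1.36% of measured genes were called. After egg white they numbered 1 of 7 at 1 h and 1 of 7 at 4 h, where 4.06% and 0.444% of measured genes were called. The set was chosen on these comparisons, so nothing is read from its counts.

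**Figure D1:**
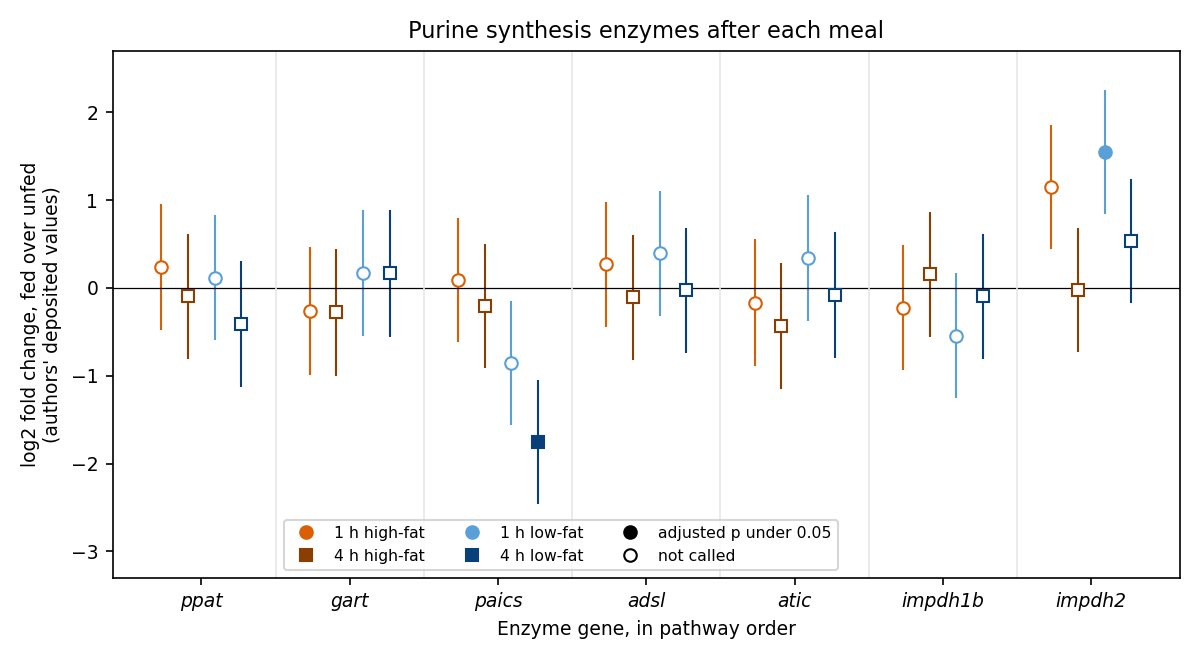
Log2 fold change of fed over unfed larvae (vertical axis) for the 7 enzymes in pathway order (horizontal axis) in the 4 comparisons of the authors' deposited table; bars are 95% intervals from the implied SE and filled symbols have an adjusted p under 0.05. The filled symbols are *paics* at -1.75 (4 h, low-fat) and *impdh2* at 1.55 (1 h, low-fat), and the other 5 enzymes lie between -0.55 and 0.40.

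*ppat* codes for the amidotransferase that commits ribose phosphate to purine synthesis. Its main transcript averaged 8.03 CPM. For it the authors' deposited table lists 0.24 (1 h) and -0.10 (4 h) after yolk, and 0.12 and -0.41 after egg white, all with an adjusted p of 1. A less abundant *ppat* transcript has 0.50 and 0.24 after yolk, and 0.52 and -0.17 after egg white, in the authors' deposited table. The 4 h value after egg white was the lowest of the 4 for both transcripts, and none was called.

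*gart* codes for an enzyme of several early and middle ring steps and averaged 4.87 CPM. In the authors' deposited table it has -0.26 and -0.28 at 1 h and 4 h after yolk, and 0.17 at both times after egg white. All 4 adjusted p-values were 1 in the authors' deposited table. The gene lies on chromosome 1 from 989727 to 1015830 (build Zv9, starts counted from 1). Its neighbour *n6amt1*, a methyltransferase gene, ranged from -0.24 to 0.23 in the authors' deposited table.

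*paics* codes for a bifunctional enzyme that adds carbon dioxide and then aspartate to the growing ring. It averaged 19.1 CPM. After yolk the authors' deposited table lists 0.09 at 1 h and -0.20 at 4 h, both with an adjusted p of 1. After egg white it lists -0.85 at 1 h (adjusted p = 0.255, unadjusted p = 0.018) and -1.75 at 4 h (adjusted p = 0.0010), again in the authors' deposited table. *paics* was thus within 1 SE of its unfed level after yolk, and called lower at the later time after egg white. The approximate 95% interval was -1.56 to -0.15 at 1 h and -2.46 to -1.04 at 4 h after egg white.

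At 4 h after egg white, *paics* had the lowest value of the 12828 measured genes. It was also the 1 measured gene called lower (0.0078%), against 56 called higher (0.437%). Among all transcripts the authors' deposited table calls 36 lower there: 4 of *paics*, 7 without a symbol and 25 of other symbols averaging under 0 on the log2 CPM scale. In the other comparisons larger shares of measured genes were called lower, namely 1.77% and 0.616% at 1 h and 4 h after yolk and 1.34% at 1 h after egg white. At 1 h after egg white, 489 measured genes (3.81%) lay below *paics*. *paics* was chosen on these values, so its rank is a description.

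All 4 listed *paics* transcripts had similar values. At 4 h after egg white they ranged from -1.84 to -1.75 in the authors' deposited table, with adjusted p-values from 3.6e-04 to 0.0010, and all 4 were called. At 1 h after egg white they ranged from -0.94 to -0.85 in the authors' deposited table, the smallest adjusted p being 0.17. After yolk they lay between -0.21 and 0.09 over both times in the authors' deposited table. The transcripts are listed with 1 common interval and may share reads, so they are not separate measurements.

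That interval, on chromosome 20 from 25647721 to 25674757 (Zv9), is listed with the same start and end for *ppat*. Its bounds may therefore be those of a shared locus and not of either gene. A RefSeq gene table of another assembly (GRCz12tu) has overlapping gene spans for this pair. In humans and chicken both genes start from a common region and are read in opposite directions. The library kit does not mark strand and the counting rule is unknown here, so reads in an overlap cannot be told apart. With that limit, the 4 h values after egg white were -1.75 for *paics* and -0.41 for *ppat* in the authors' deposited table.

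Genes in or beside the interval had no call. *cyp2j20*, a cytochrome P450 gene, ranged from 0.14 to 0.57 in the authors' deposited table. *aasdh*, on the other side and averaging -1.12 log2 CPM, has -0.36 and -0.60 after yolk and 0.04 and -1.21 after egg white in the authors' deposited table. The rare si:dkeyp-117h8.4, listed with the interval of *paics* itself, averaged -2.26 log2 CPM and ranged from -1.64 to -0.71 in the authors' deposited table.

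**Figure D2:**
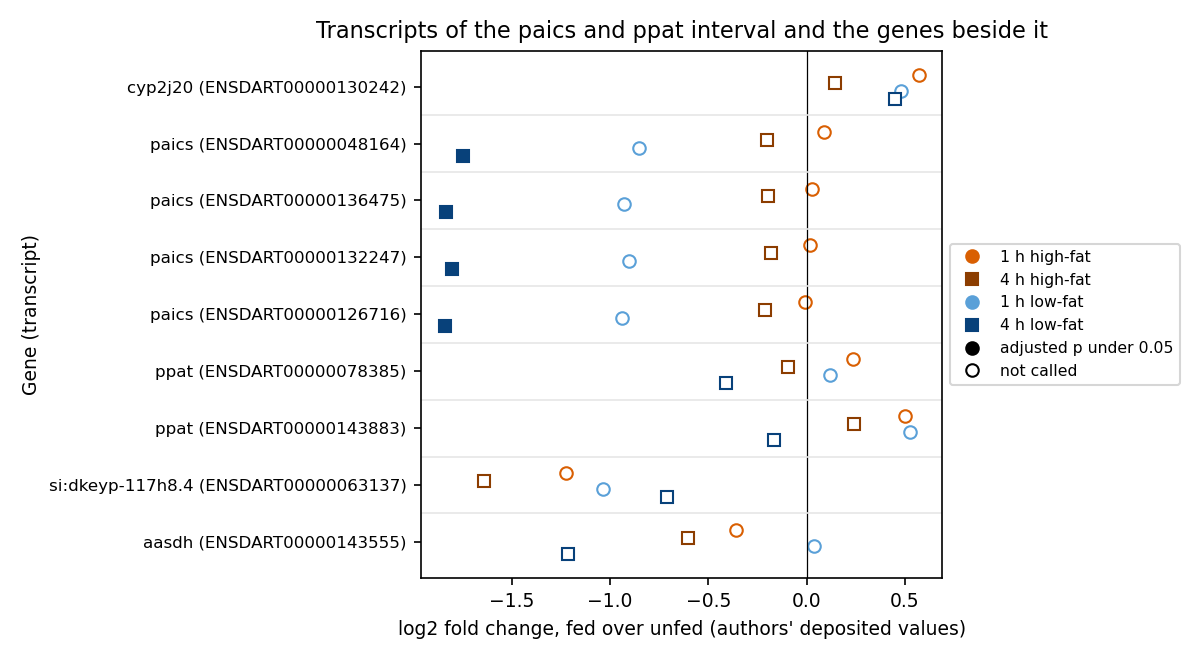
Log2 fold change of fed over unfed larvae (horizontal axis, authors' deposited table) for each transcript of *paics* and *ppat* and for the named genes in or beside their interval (vertical axis). The 4 *paics* transcripts lie between -1.84 and -1.75 at 4 h in the low-fat cohort and are filled (adjusted p under 0.05), while the 2 *ppat* transcripts lie at -0.41 and -0.17.

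*adsl* codes for the lyase that acts in IMP synthesis and again before AMP, and averaged 10.2 CPM. The authors' deposited table gives it 0.27 at 1 h and -0.11 at 4 h after yolk, and 0.40 and -0.03 after egg white. Its smallest adjusted p was 0.90, at 1 h after egg white, in the authors' deposited table. A second transcript ranged from -0.25 to 0.39 in the authors' deposited table, with no call. The gene lies on chromosome 3 from 24498484 to 24509863. Of its neighbours, *atf4b2*, a gene of the ATF4 transcription factors that respond to amino acid shortage in mammals, has 0.57 and 0.07 after yolk and 0.33 and -0.05 after egg white in the authors' deposited table. The neighbours *prr15la*, si:dkey-110g7.8 and zgc:123244 had no call.

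*atic* codes for the enzyme that adds the last carbon and closes the ring, and averaged 6.45 CPM. For *atic* the authors' deposited table lists -0.17 and -0.43 after yolk, and 0.34 and -0.08 after egg white, with adjusted p-values of 0.98 or more. Its interval, chromosome 1 from 4326544 to 4432219, also holds the fibronectin gene *fn1b* and the homeobox gene *mnx2b*. *fn1b* averaged 10.61 log2 CPM and ranged from -0.15 to 0.14 in the authors' deposited table. *mnx2b*, averaging -0.31 log2 CPM, fell by 2.05 at 1 h after egg white in the authors' deposited table (adjusted p = 1.3e-04), where *atic* was at 0.34. The neighbour *stk16* ranged from -0.10 to 0.21 in the authors' deposited table. Reads of overlapping genes cannot be told apart here either.

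*impdh2* codes for IMP dehydrogenase, which commits IMP to guanine nucleotides, and averaged 19.3 CPM. At 1 h the authors' deposited table lists 1.15 after yolk (adjusted p = 0.059) and 1.55 after egg white (adjusted p = 0.0021). At 4 h it lists -0.03 after yolk and 0.53 after egg white, again in the authors' deposited table and both with adjusted p = 1. *impdh2* was thus called higher at 1 h after egg white, just missed the threshold at 1 h after yolk, and was uncalled at 4 h. The approximate intervals at 1 h were 0.44 to 1.85 after yolk and 0.84 to 2.26 after egg white. Adjusted over the measured genes in place of all transcripts, the yolk value had an adjusted p of 0.039 (Benjamini-Hochberg). At 1 h, 2.28% of measured genes lay above *impdh2* after yolk and 1.35% after egg white, and at 4 h 54.3% and 4.24% did. The share of measured genes called higher was 1.96% at 1 h and 0.741% at 4 h after yolk, and 2.72% at 1 h after egg white. *impdh2* lies on chromosome 8 from 26912620 to 26932083, between *arih2* and *dalrd3*. Neither neighbour was called, and at 1 h after egg white they had -0.71 and -0.03 in the authors' deposited table.

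*impdh1b* codes for a second IMP dehydrogenase and averaged 9.98 CPM. In the authors' deposited table it has -0.23 and 0.16 at 1 h and 4 h after yolk, and -0.55 (adjusted p = 0.69) and -0.10 after egg white. Another transcript of *impdh1b* was nearly equal to these, and a rare one, averaging -0.43 log2 CPM, has 0.31 and 0.81 after yolk and -0.03 and -0.08 after egg white in the authors' deposited table. The gene lies on chromosome 4 from 18029098 to 18053665. A further paralog outside the set, *impdh1a*, averaged 1.18 CPM and has -0.63 and -0.20 after yolk and -0.69 and -1.08 after egg white in the authors' deposited table, with no call. At 1 h both of these paralogs were below 0 in either cohort, where *impdh2* was above 1. Reads that match several paralogs may have been split between them by a rule unknown here.

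Subtracting the 1 h from the 4 h value of a cohort removes its shared unfed larvae. For *impdh2* this difference was -1.17 (SE 0.36) in the yolk cohort and -1.02 (SE 0.36) in the egg white cohort. Measured genes with a lower difference made up 2.71% and 2.40%. *impdh2* was chosen with its 1 h values known, so these differences are a description. For *paics* the difference was -0.29 (SE 0.36) with yolk and -0.90 (SE 0.36) with egg white, and 25.8% and 3.31% of measured genes were lower. *ppat*, *adsl* and *atic* had differences from -0.38 to -0.26 with yolk and from -0.53 to -0.42 with egg white. *gart* had -0.01 in both cohorts, and *impdh1b* had 0.38 and 0.45. None of these differences was tested.

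**Figure D3:**
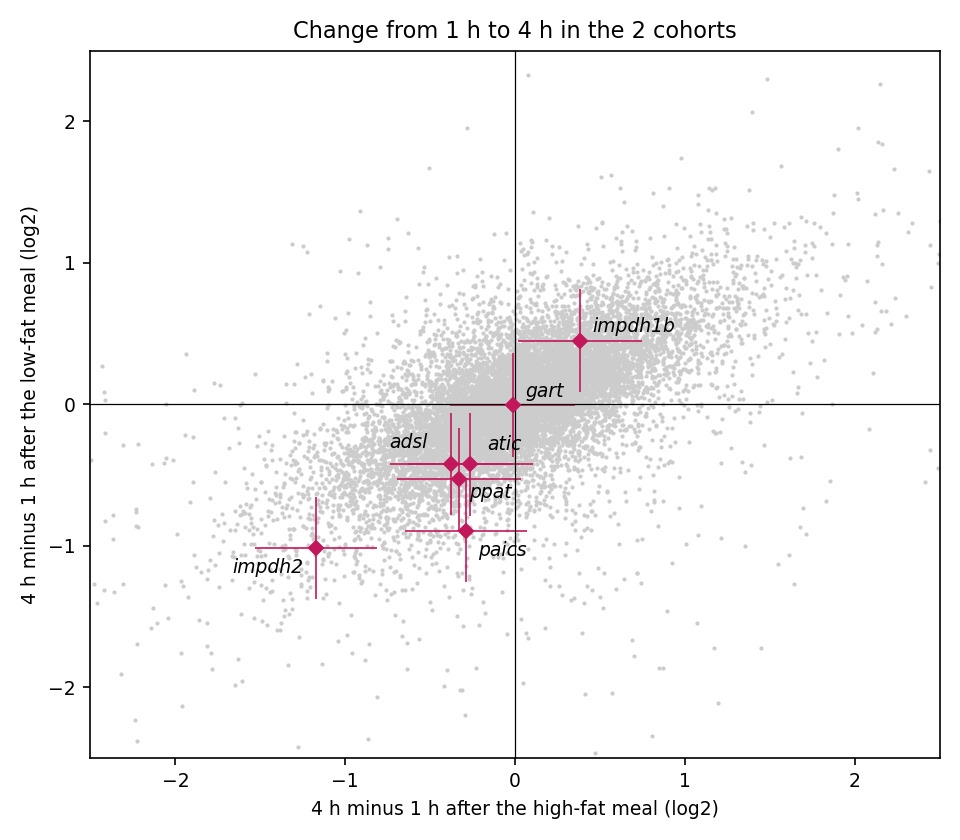
Log2 value at 4 h minus 1 h in the high-fat (horizontal axis) and low-fat cohort (vertical axis) for the 7 enzymes (diamonds, bars of 1 implied SE) and 12743 other measured genes (grey; 78 lie outside the axes). *impdh2* is low in both cohorts at -1.17 and -1.02, *paics* lies at -0.29 and -0.90, and *impdh1b* is above 0 in both.

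The foods were set side by side as the egg white value minus the yolk value. For *paics* this was -0.94 (SE 0.51) at 1 h and -1.55 (SE 0.51) at 4 h, with 2.25% and 0.437% of measured genes lower. For *impdh2* it was 0.40 (SE 0.51) at 1 h and 0.56 (SE 0.51) at 4 h, close to 1 SE. The other 5 enzymes lay between -0.32 and 0.51 at 1 h and between -0.32 and 0.44 at 4 h, each within 1 SE of 0. These differences were not tested, and food and cohort cannot be told apart in them.

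Around the 7 enzymes, 10 lists of nucleotide and one-carbon metabolism name 102 other genes, of which 83 had a row and 73 were measured. At 1 h after yolk 0 of 73 were called higher and 1 lower (1.37%), against 1.96% and 1.77% of all measured genes. At 4 h after yolk 0 were called, against 1.36% of all measured genes. At 1 h after egg white 2 were called higher and 2 lower, and at 4 h 0 were called, against 0.444% of all measured genes at 4 h. The shares were 2.74% higher and 2.74% lower at 1 h after egg white, against 2.72% and 1.34% of all measured genes. The medians of the 73 genes were 0.09 and -0.07 after yolk and 0.17 and 0.05 after egg white, against -0.01, 0.01, 0.02 and 0.02 over all measured genes.

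The other genes of IMP synthesis and its branches had no call. *pfas*, the amidotransferase that acts between GART steps and ahead of PAICS, has 0.00 and -0.29 after yolk and 0.09 and -0.04 after egg white in the authors' deposited table. *gmps*, which follows IMP dehydrogenase on the way to GMP, has 0.46 and 0.03 after yolk and 0.68 and 0.12 after egg white in the authors' deposited table, with a smallest adjusted p of 0.48. Like *impdh2*, *gmps* had its higher value of each cohort at 1 h, without a call. *adss*, *adssl* and *adssl1*, of the synthetase that opens the AMP branch, ranged from -0.54 to 0.33 in the authors' deposited table. *prps1a*, of the synthetase that activates ribose phosphate, has 0.82 and 0.04 after yolk and 0.73 and 0.30 after egg white in the authors' deposited table, with a smallest adjusted p of 0.29. *prps1b* and *prpsap2* of the same list ranged from -0.13 to 0.31 in the authors' deposited table.

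Of 16 measured genes of purine breakdown 1 was called lower at 1 h after yolk, against 1.77% of all measured genes, and neither breakdown nor the 7 measured salvage genes had another call in the 4 comparisons. *pnp5a*, a purine nucleoside phosphorylase gene averaging 401 CPM, fell by 1.44 at 1 h after yolk in the authors' deposited table (adjusted p = 0.0066). Its other values were -0.27, -0.19 and 0.04 in the authors' deposited table. *adka*, an adenosine kinase gene and the most abundant of the salvage list, ranged from 0.09 to 0.27 in the authors' deposited table. Picked after their values were seen, *hprt1*, the salvage enzyme of hypoxanthine and guanine, had 1.15 (adjusted p = 0.057) and *gda*, guanine deaminase, had 1.13 (adjusted p = 0.064) at 1 h after yolk in the authors' deposited table. Both sit just outside the threshold, as *impdh2* does there. At 4 h after yolk *hprt1* was at 0.71 and *gda* at -0.16 in the authors' deposited table. At 1 h and 4 h after egg white *hprt1* had 0.67 and 0.20. For *gda* these values were 1.04 (adjusted p = 0.099) and 0.29, also in the authors' deposited table and without a call.

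Folate metabolism supplies one-carbon units for the GART and ATIC steps. Of 11 measured genes of this list 1 was called higher at 1 h after egg white, against 2.72% of all measured genes. The other comparisons had 0 calls, against 0.444% to 3.73% of all measured genes. The list medians were 0.28 and -0.18 after yolk and 0.15 and -0.05 after egg white. At 1 h after egg white 7 of the 11 were above 0, and the lowest, *slc25a32a*, was at -0.79 in the authors' deposited table. *aldh1l2*, a mitochondrial formyltetrahydrofolate dehydrogenase, rose by 1.41 at 1 h after egg white in the authors' deposited table (adjusted p = 0.011). Its other values were 1.03 and 0.87 after yolk and 0.91 at 4 h after egg white in the authors' deposited table. A rarer *aldh1l2* transcript was called in 3 comparisons, with 1.99 and 1.78 after yolk and 1.80 at 1 h after egg white in the authors' deposited table. *mthfd2*, a mitochondrial folate enzyme, rose by 1.98 at 1 h after yolk (adjusted p = 7.0e-04) and by 1.60 at 1 h after egg white (adjusted p = 0.019) in the authors' deposited table. It averaged -0.50 log2 CPM, so it is outside the counts of measured genes, and its listed interval also holds *dguok*.

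In the list of nucleotide kinases and reduction, 2 of 11 measured genes were called lower at 1 h after egg white, against 1.34% of all measured genes. Of these 11 genes 5 were above 0 there, and the median was -0.02. *rrm2*, a ribonucleotide reductase subunit, fell by 1.33 (adjusted p = 0.020) and *nme4*, a nucleoside diphosphate kinase gene, fell by 1.32 (adjusted p = 0.016) in the authors' deposited table. Among 8 regulators, *mycb*, a zebrafish c-Myc gene, rose by 1.45 in the same comparison of the authors' deposited table (adjusted p = 0.0053). It was the 1 regulator of 8 called higher at 1 h after egg white, against 2.72% of all measured genes. The lists were chosen with earlier results of these data known, so nothing is read from the counts of either list. In mammals c-Myc is known to activate purine synthesis genes. *mycb* also has 1.02 (adjusted p = 0.12) and -0.86 after yolk and 0.30 at 4 h after egg white in the authors' deposited table. *mycb* and *impdh2* both had their highest value at 1 h after egg white. The related *myca* and *mycn* were at -0.08 and 0.06 there in the authors' deposited table, without a call. The part of Myc in the values of the purine genes was not tested. Pyrimidine synthesis had 0 calls among 8 in each comparison, against 0.444% to 4.06% of all measured genes. *cad*, the enzyme of its first steps, ranged from 0.29 to 0.56 in the authors' deposited table.

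**Figure D4:**
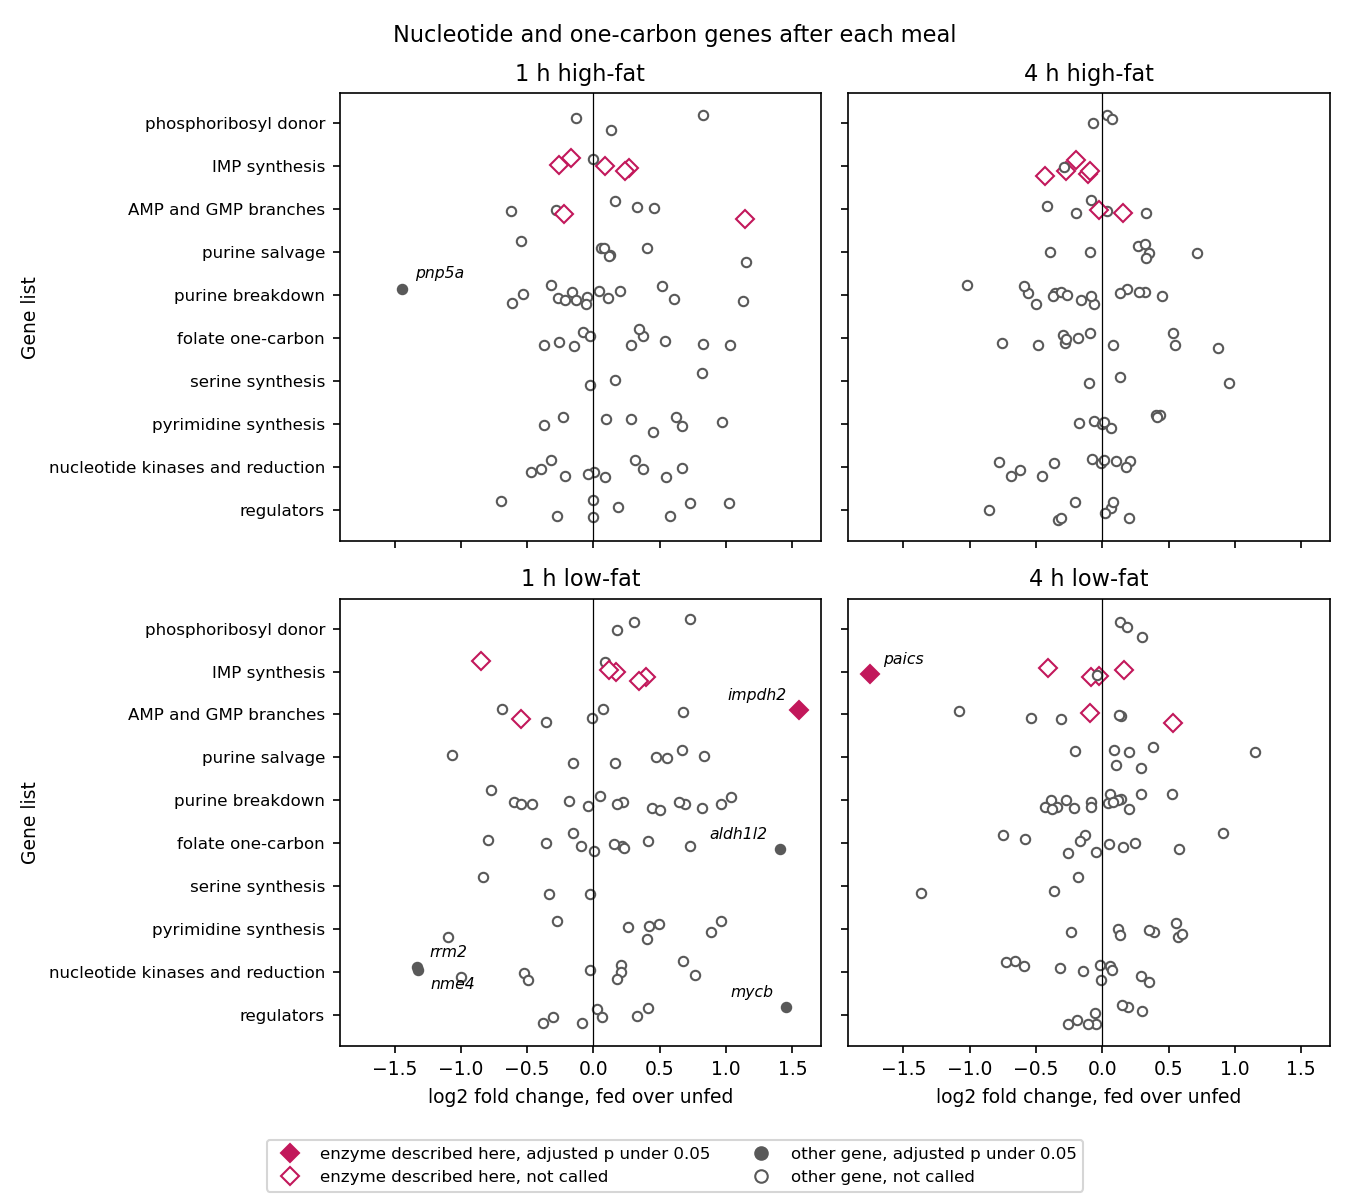
Log2 fold change of fed over unfed larvae (horizontal axis, authors' deposited table) for the 7 enzymes (diamonds) and 73 other measured genes (circles) of 10 lists (vertical axis), 1 panel per comparison, with called genes filled and named. *paics* is the filled symbol at 4 h in the low-fat cohort (-1.75), and 0 are filled at 4 h in the high-fat cohort.

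*phgdh*, the first enzyme of serine synthesis, had the values most like those of *paics*. Likeness was the Euclidean distance over the 4 fold changes, searched over 10872 genes averaging at least 1 on the log2 CPM scale. For *phgdh*, at a distance of 0.514, the authors' deposited table lists 0.16 and 0.13 after yolk and -0.83 and -1.37 (adjusted p = 0.082) after egg white. None of these passed the threshold. *phgdh* averaged 2.14 CPM, near the abundance limit of the search, where *paics* averaged 19.1 CPM. Each *phgdh* value had an implied SE of 0.38. The distances were not tested against such errors, so their order is a description. The next were si:dkey-239b22.1 at 0.957, *atp1b3a* at 0.961, *qsox1* at 0.996 and *mpdu1a* at 1.05. In the same serine list, *psph* ranged from -0.18 to -0.03 in the authors' deposited table. *psat1*, picked after its values were seen, has 0.82 and 0.95 after yolk and -0.34 and -0.36 after egg white in the authors' deposited table, with no call. Comparisons that share unfed larvae enter this distance, so its 4 values are not independent.

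Gene Ontology terms in the table were read for what the enzymes share. The term purine nucleotide biosynthetic process is on 5 of the 7, and the de novo IMP term is on 3. *paics* is the 1 of the 7 with the terms pigmentation and camera-type eye development. Some pigment cells of fish make purines in quantity, so 12 markers of several pigment cell types were examined, in a list added after the values were seen. Of these 11 had a row, summing to 17.97 CPM on average. In each comparison 0 of the 5 measured ones were called, against 0.444% to 4.06% of all measured genes. The median of the 5 was -0.25 and 0.03 after yolk and 0.41 and -0.26 after egg white. At 4 h after egg white they ran from -0.92 (*pmela*, a melanosome gene) to 0.20 (*pnp4a*, of iridophores) in the authors' deposited table. Over all 11, 9 were above 0 at 1 h and 8 below 0 at 4 h after egg white, where *paics* was below 0 at both times. The rare markers *gch2* and *mitfa*, averaging -1.22 and -3.20 log2 CPM, were called higher at 1 h after egg white, by 3.24 and 2.52 in the authors' deposited table. At 4 h after egg white the authors' deposited table lists -1.50 for *oca2* and -1.05 for *tyr* (unadjusted p = 0.038 and 0.033, adjusted p = 1 for both), rare pigment genes, and -0.64 for the measured *tyrp1b*. In the other direction it lists 1.24 for *mitfa* and 0.50 for *gch2* at that time, without a call. The rare *dct* and *slc24a5* were at -0.15 and -0.14 there, and the measured *ltk* and *csf1ra* at -0.26 and -0.18. The part of pigment cells in the *paics* values was not tested.

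Markers of the dissected organs were abundant: 5 of 5 intestine, 5 of 5 liver and 4 of 5 pancreas markers had a row, averaging 5.48 to 12.14 log2 CPM. At 4 h after egg white 0 of these 14 were called, against 0.444% of all measured genes, with medians of 0.20, -0.10 and -0.10. Where *impdh2* rose, 1 h after egg white, the authors' deposited table has *hnf4a* of the liver list higher by 1.21 (adjusted p = 0.034). It was the 1 of 5 liver markers called there, against 2.72% of all measured genes called higher. The liver markers *fabp10a* and *tfa* were at 0.08 and 0.23 in the authors' deposited table. The 5 genes of that list had a median of 0.40 and were all above 0 there. So were 4 of 4 pancreas, 5 of 6 skeletal muscle and 3 of 5 intestine markers. At 1 h after yolk, where *impdh2* was at 1.15, the liver list had a median of 0.10 and *hnf4a* was at 0.42. The lipoprotein gene *apoba*, of the same liver list, rose by 1.21 at 1 h after yolk (adjusted p = 0.036) in the authors' deposited table. It was the 1 of 5 liver markers called there, against 1.96% of all measured genes called higher. The ileal *fabp6* rose by 1.47 at 4 h after yolk (adjusted p = 0.0097), also in the authors' deposited table. That was the 1 call among 5 intestine markers there, against 0.741% of all measured genes called higher. In a list of skin and eye markers, the rod gene *rho* and *crybb1* were near absent at -4.68 and -4.49 log2 CPM. The keratin genes *krt4* and *krt5* were present at 10.55 and 6.87. Whether the keratin RNA came from skin or from the dissected organs themselves cannot be told here. Skeletal muscle markers had medians of -0.69 and -0.93 after yolk and 0.29 and -0.02 after egg white. At 4 h after yolk 2 of 6 were called lower, against 0.616% of all measured genes. At each time after yolk 5 of the 6 were below 0, while *acta1b* was at 0.54 and 0.43 without a call. *ampd1*, known in mammals as the muscle AMP deaminase, was picked after its values were seen. Its lowest value was at 4 h after yolk, -1.02 (adjusted p = 0.19) in the authors' deposited table. The part of liver, muscle or skin in the values of the purine genes was not tested.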

How the data were processed

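Poly(A) libraries were sequenced with reads of 50 bases, per the labels. TopHat2, edgeR and genome build Zv9 are named per the submitters' processing notes; for versions, counter and annotation no entry is given in the sources used here. The authors' deposited table holds 56754 transcripts, each with an average log2 CPM and, for every comparison, log2 fold changes and p-values, raw and adjusted. It has 0 columns of single samples, so depth per sample is unknown and no count test was run. Recomputing the Benjamini-Hochberg adjustment over all transcripts returned the authors' deposited adjusted p-values.

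Rows without a symbol (18412) were left out. Implied SEs are medians over measured genes within 0.5 log2 CPM and changed by over 0.5. For each such gene the log2 fold change was divided by the normal score of its p-value. A simulation checked this calculation only. Whether the SEs and their intervals hold for the authors' p-values was not tested, because single samples have no values. The implied SEs served for 95% intervals and, combined, for differences between comparisons. File starts count from 0 and were raised by 1. The enzymes, lists and rules were chosen with earlier results of these data known. Named genes are the 7 enzymes, the other genes of the IMP, AMP and GMP and ribose phosphate lists, called genes of the other lists (or the most abundant where none was called), genes within 10 kb and the 5 most like *paics*; exceptions are marked. Alternatives were other thresholds, adjustment over genes, other transcripts, median centring and no abundance filter. Under median centring a gene was called where its centred change reached the smallest called size of that comparison, without its adjusted p. Python 3.11.15, numpy 2.4.6, pandas 2.3.3 and scipy 1.17.1 were used.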

Additional observations from a re-analysis of the deposited data

How the results depend on the processing

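Under 6 alternatives, 86 of 96 counts stayed equal or within 1.5 times, among them every count of enzymes called after egg white. Some of these counts could not move. A count of 0 cannot fall at a threshold of 0.01. Median centring called genes by size and shifted them little, so genes called before could hardly drop out. The enzymes are all measured genes, so dropping the abundance filter cannot change their counts. *impdh2* has 1 transcript, so no other transcript could stand in for it. At 1 h after yolk, enzymes called higher went from 0 to 1 (*impdh2*), both at a threshold of 0.1 and adjusted over 1 transcript per symbol. Pathway genes called higher there went from 0 to 2 under each of these (*hprt1* and *gda* in the second), and to 1 with the least abundant measured transcript (*aldh1l2*) or no abundance filter (*mthfd2*). At 4 h after yolk the least abundant transcript gave 1 in place of 0 (*aldh1l2*). At 1 h after egg white a threshold of 0.01 left 1 of 2 higher and 0 of 2 lower, and at 4 h a threshold of 0.1 gave 1 lower in place of 0 (*phgdh*). These shifts follow from the settings themselves: another threshold, fewer genes tested or another transcript. The 56 recomputed fold changes of the enzymes moved by at most 0.22, under 1 implied SE. Part of this was fixed in advance. The subtracted medians were only -0.01 to 0.02, and *gart*, *atic* and *impdh2* have 1 transcript each, so averaging transcripts could not move them. No paired analysis was possible because the table holds comparisons and no values of single samples, and for that reason no replicate could be left out. The smallest called change among measured genes was 1.16 to 1.42 by comparison, so changes smaller than this were not called.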
